A study of Mus musculus with 224 samples.

Results

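The protocadherin genes on the array were taken as all genes with a probeset (a group of short probes for 1 transcript) that carries a single symbol starting with Pcdh. This gave 35 genes of 18193 with a probeset of 1 symbol, with 62 probesets between them. For each gene and region the probeset with the highest mean signal was used. Of the 35 genes, 23 were clustered (22 Pcdhb genes and Pcdhgc4) and 12 were non-clustered. No Pcdha gene had a probeset of its own, since 6 further probesets each listed 9 to 14 Pcdha symbols, and these were kept apart.

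Male C57BL/6J mice, bought at 10 weeks of age, fell into 4 groups. RNA of 5 brain regions was measured on Affymetrix arrays, 1 array per region of a mouse. These were the medial prefrontal cortex (PFC, 47 arrays), the hippocampus (HPC, 42), the nucleus accumbens (NAC, 47), the amygdala's central nucleus (CeA, 43) and the stria terminalis bed nucleus (BNST, 45). CIE Drinking mice inhaled ethanol vapor (chronic intermittent ethanol, CIE) for 16 h a day over 4 days per cycle, abstained for 72 h and could then choose 15% (v/v) ethanol or water for 2 h a day, after 6 weeks of baseline drinking. Air Drinking mice drank in the same way but inhaled air, CIE NonDrinking mice inhaled ethanol and had only water, and Air NonDrinking mice received neither. The paper states that at death the drinking groups had been without ethanol for a shorter time than the NonDrinking groups. Drinking and time since ethanol cannot be told apart here. Both CIE groups were injected with 1.6 g/kg ethanol before vapor, and mice of all groups received 1 mmol/kg pyrazole, an inhibitor of alcohol dehydrogenase, so every difference was measured against a pyrazole background. CIE Drinking groups had 12 arrays per region (NAC 11), and Air Drinking groups 12 (PFC and HPC 11). CIE NonDrinking groups had 12 arrays for PFC and NAC and 11 elsewhere. Air NonDrinking groups had 12 for PFC and NAC, 10 for BNST and 8 for HPC and CeA.

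Protocadherins are the largest group of the cadherin superfamily, calcium-dependent adhesion proteins of the cell surface. The clustered genes lie in tandem arrays, and each neuron expresses its own combination of them from alternative promoters, which gives cells an identity used in self-avoidance of dendrites and axons. The non-clustered delta protocadherins are expressed in patterns that differ between brain regions and cell types, and act in axon growth, synapse formation and synapse removal. Pcdha and Pcdhg transcripts share constant exons at their 3′ end, where array probes usually lie, whereas each Pcdhb gene is a single exon.

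The stretches upstream of the start site are shown for 3 delta protocadherins on which the results below turn, from RefSeq on GRCm38.p6, each 250 bases long. CTCF, a DNA-binding factor, works at promoters of the clustered genes, where a short CGCT element is known. Capitals mark CGCT on either strand, so that AGCG is its reverse complement and neighbouring matches may overlap. Pcdh8 is chr14:79771313-79771562 on the minus strand, Pcdh10 is chr3:45378148-45378397 on the plus strand and Pcdh9, the first of its 2 entries, is chr14:93890680-93890929 on the minus strand.
Pcdh8: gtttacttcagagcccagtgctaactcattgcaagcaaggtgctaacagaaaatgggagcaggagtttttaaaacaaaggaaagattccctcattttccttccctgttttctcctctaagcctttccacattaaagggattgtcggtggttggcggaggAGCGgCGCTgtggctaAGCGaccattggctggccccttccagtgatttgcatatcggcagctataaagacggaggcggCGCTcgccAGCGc
Pcdh10: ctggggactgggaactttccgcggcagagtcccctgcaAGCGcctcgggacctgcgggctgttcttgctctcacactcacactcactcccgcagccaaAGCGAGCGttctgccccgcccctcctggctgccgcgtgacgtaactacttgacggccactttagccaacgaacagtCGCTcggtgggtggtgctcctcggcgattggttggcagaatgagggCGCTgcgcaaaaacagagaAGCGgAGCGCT
Pcdh9: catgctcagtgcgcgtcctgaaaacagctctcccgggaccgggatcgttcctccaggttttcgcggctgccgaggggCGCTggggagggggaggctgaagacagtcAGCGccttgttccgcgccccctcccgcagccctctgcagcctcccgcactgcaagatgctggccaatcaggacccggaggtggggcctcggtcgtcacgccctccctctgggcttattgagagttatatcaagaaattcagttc
The stretches held 5, 8 and 2 matches, and 51.2, 63.2 and 63.6% of their bases were G or C, beside a median of 52.4% over all promoters. In the reference's promoter windows, which add the 50 bases after the start, all 10 entries of the 9 member genes listed there held CGCT, as did 61.8% of all 32851 windows. These 9 were all non-clustered genes, and the reference listed no promoter of a clustered gene, so none was searched. The longer motif CAGNNGGCG, searched on both strands, was in 0 of these 10 entries and in 8.23% of all windows. A match is a description of letters and not a bound site.

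Signal differed between the classes. In the PFC the mean signal of the non-clustered members lay at a median percentile of 80.7 among all probesets, from 19.6 for Pcdh1 to 98.2 for Pcdh9, a delta-1 protocadherin. The clustered members lay at a median of 48.7, from 8.17 for Pcdhb18 to 80.8 for Pcdhb9. In the 5 regions 9 to 11 of the 23 clustered members lay below the 40th percentile, and 2 of the 12 non-clustered members did, Pcdh1 and Pcdh12 in each. Pcdh8 ranked at the 81.6th percentile in the PFC and at the 97.8th in the HPC, and Pcdh20 at the 66.6th and the 95.7th. Pcdhgc4, the 1 gamma member, ranked from the 58.7th in the PFC to the 63.7th in the NAC. Regions were normalized apart, so only ranks within a region are given, and levels were not tested between regions. Of the 35 genes, 25 lay on chromosome 18, namely the clustered genes with Pcdh1 and Pcdh12, and 4 on chromosome 14 (Pcdh8, Pcdh17, Pcdh20 and Pcdh9).

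The regions carried their own markers in part. The 7 excitatory cortical markers measured had a median percentile of 82.1 in the PFC, beside 79.9 in the HPC, 73.0 in the CeA, 50.3 in the NAC and 46.1 in the BNST. The 7 striatal neuron markers measured had a median percentile of 98.5 in the NAC but also of 81.7 in the PFC, and the 7 hippocampal markers one of 92.2 in the HPC. The 8 markers of central amygdala and BNST neurons had medians of 83.0 in the BNST and 79.0 in the CeA, but also of 78.4 in the NAC. Markers of other tissue varied between arrays, and the mean log2 signal of the striatal markers in PFC arrays ran from 8.22 to 10.0. The 5 markers of choroid plexus and ependyma had a median percentile of 95.1 in the CeA beside 28.3 to 35.1 in the other regions, and their mean had a standard deviation of 1.30 on the log2 scale over CeA arrays. In bulk tissue, fewer cells of a type and less RNA per cell cannot be told apart.

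Each pair of groups was compared within a region, and a probeset was called at a Benjamini-Hochberg adjusted p of 0.01 over all probesets of the region (limma). Comparison 1 was CIE Drinking against Air Drinking, Comparison 2 CIE NonDrinking against Air NonDrinking, Comparison 3 CIE Drinking against CIE NonDrinking, Comparison 4 CIE Drinking against Air NonDrinking, Comparison 5 CIE NonDrinking against Air Drinking, and Comparison 6 Air Drinking against Air NonDrinking. Comparisons that share a group share its arrays. In the PFC, 5 of 35 members, or 14.3%, were called in at least 1 of the 6 comparisons, namely Pcdh8, Pcdh10, Pcdh15, Pcdhb7 and Pcdhb21, where 6.29% of all probesets were. In the HPC, 1 of 35 was called, Pcdh9, against 3.84% of all probesets. In the NAC, BNST and CeA, 0 of 35 were called, where 2.72, 1.7 and 2.53% of all probesets were. Members are the brightest probesets of their genes, whereas the shares are over probesets of any signal.

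**Figure D1:**
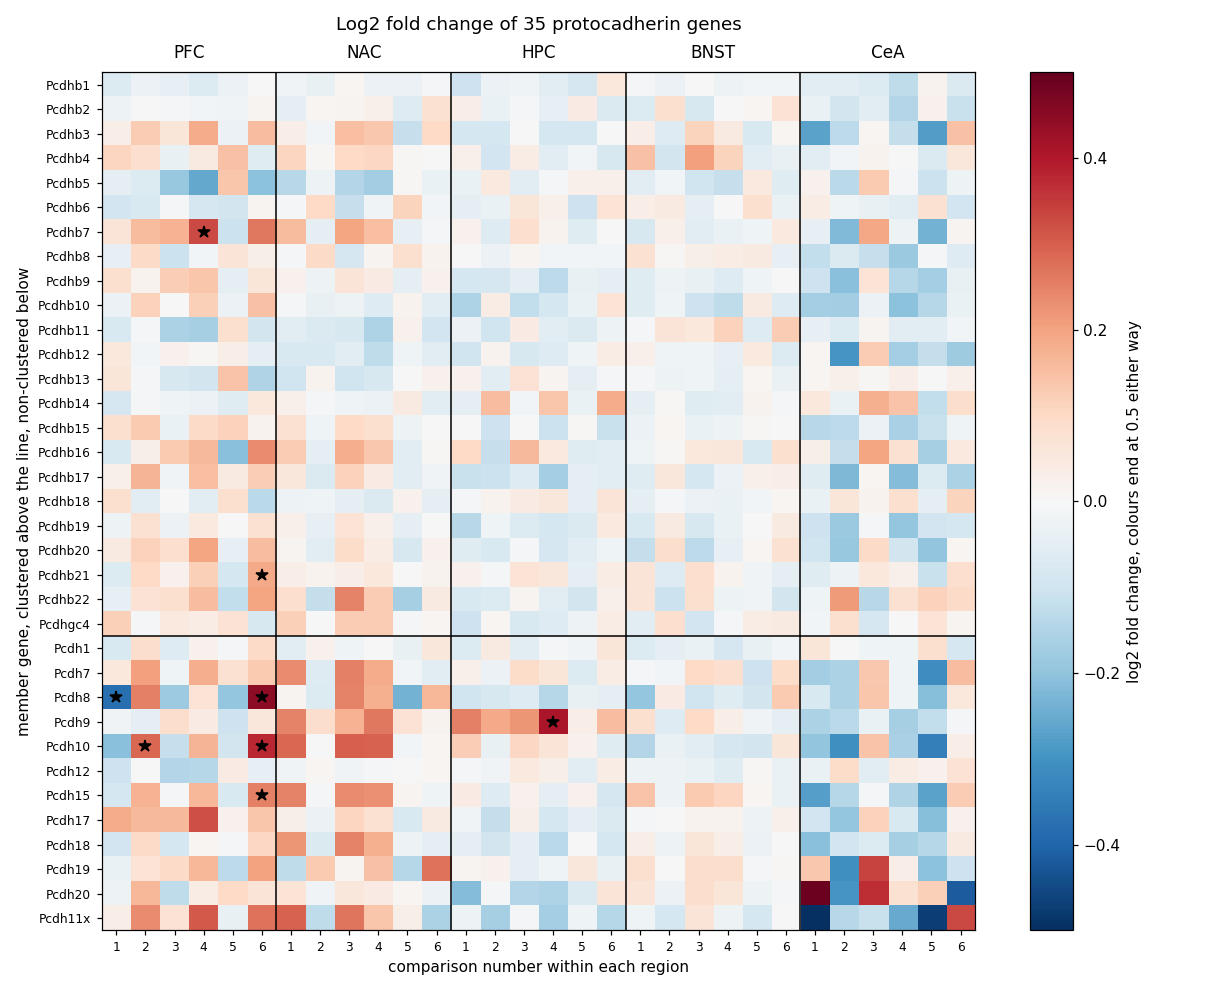
Log2 fold change of the 35 members (rows, clustered above the line and non-clustered below) in the 6 comparisons of each region (columns), with stars where the adjusted p was at or below 0.01. Of the 8 stars, 7 lie in the PFC and 1 in the HPC, and colours end at 0.5 in either direction.

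In the PFC, drinking without vapor went with higher signal of 3 non-clustered members and 1 clustered member (Comparison 6), which was 4 of 35 where 1.4% of all probesets were called. Pcdh10, a delta-2 protocadherin that binds actin regulators and takes part in synapse removal, had a log2 signal from 9.52 to 10.2 with a median of 9.94 in Air NonDrinking mice, and from 10.1 to 10.5 with a median of 10.3 in Air Drinking mice. The ranges overlapped, and all 11 Air Drinking arrays lay above the Air NonDrinking mean. Its log2 fold change was 0.38 ± 0.06 (SE, n = 11 and 12, limma adjusted p = 0.000379).

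Pcdh8, a delta-2 protocadherin also known as arcadlin, is induced by neuronal activity and acts in the turnover of synaptic contacts. Its log2 signal in the PFC ran from 8.49 to 9.26 with a median of 8.97 in Air NonDrinking mice, and from 9.19 to 9.64 with a median of 9.35 in Air Drinking mice. All 11 Air Drinking arrays lay above the Air NonDrinking mean, and the difference in log2 signal was 0.45 ± 0.09 (SE, n = 11 and 12, limma adjusted p = 0.00246). The probeset used for Pcdh8 has the suffix _x_at, which marks probes that may match other sequences, and its other probeset, 1417051_at, gave 0.51 ± 0.10 (limma adjusted p = 0.00202). With array weights the value of Pcdh8 was 0.33 (limma adjusted p = 0.0102).

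Pcdh15, known for the tip links of hair cells in the inner ear, ran from 6.34 to 6.61 with a median of 6.51 in Air NonDrinking mice and from 6.59 to 6.98 with a median of 6.78 in Air Drinking mice, on the log2 scale of its probeset. The groups overlapped only at their edges, and the log2 fold change was 0.25 ± 0.05 (SE, n = 11 and 12, limma adjusted p = 0.00195). The other probesets of Pcdh15, 1421503_at and 1442326_at, had values of 0.08 and 0.13 and were not called. Pcdhb21 ran from 7.58 to 7.90 with a median of 7.73 in Air NonDrinking mice and from 7.87 to 8.004 with a median of 7.93 in Air Drinking mice, a log2 fold change of 0.19 ± 0.03 (SE, n = 11 and 12, limma adjusted p = 0.000554). Its other probeset, 1438106_at, had 0.44 (limma adjusted p = 0.0118) and was not called.

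With the mean of the striatal markers as a covariate, a fit chosen after seeing the data, Pcdh10, Pcdh8 and Pcdhb21 were still called in Comparison 6, and Pcdh15 was not (0.23, limma adjusted p = 0.0108). Over all 12 non-clustered members, 11 had positive fold changes with a median of 0.14 on the log2 scale. Of 23 clustered members 16 did, with a median of 0.03. All probesets had a median of -0.01, and 44.4% of them were positive. At an unadjusted p under 0.05 there were 5 non-clustered and 10 clustered members, beside 24.7% of all probesets.

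**Figure D2:**
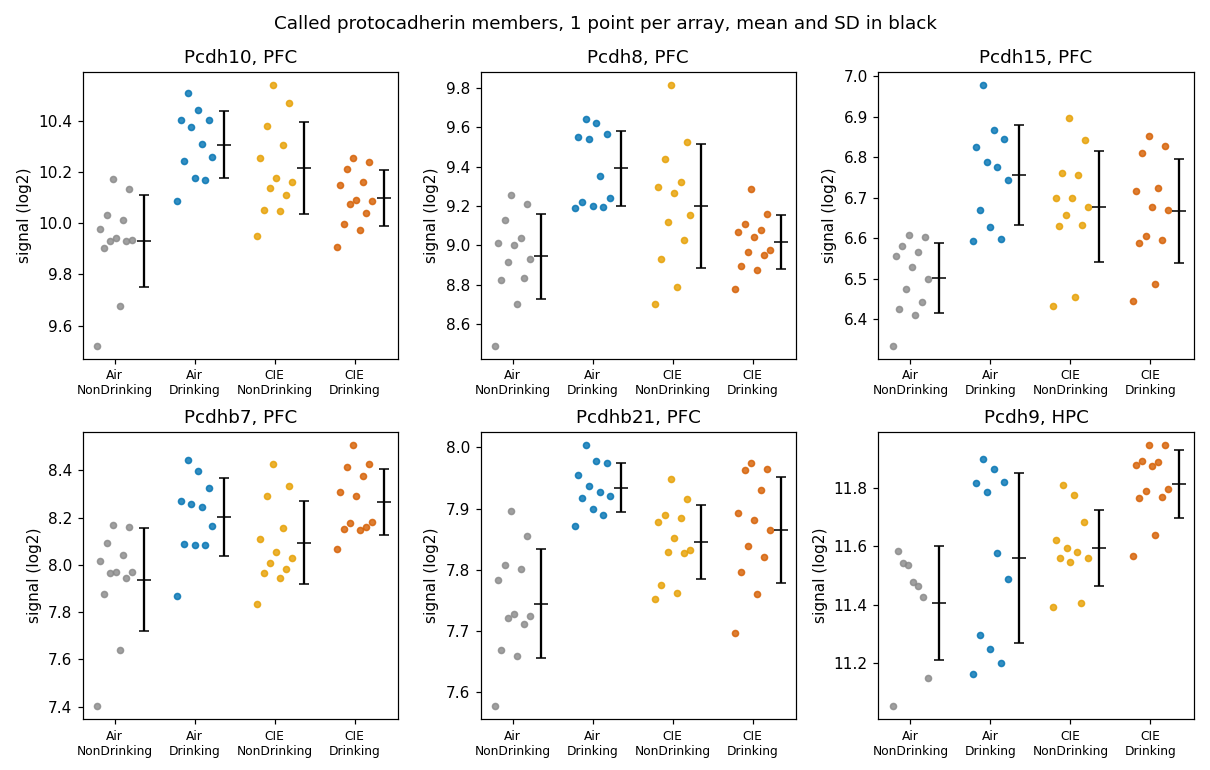
Log2 signal of the 6 called members, 5 in the PFC and Pcdh9 in the HPC, with 1 point per array and the mean and standard deviation in black. In the PFC the Air NonDrinking arrays lie lowest in mean for all 5 genes, and Pcdh8 and Pcdh10 are highest in mean in Air Drinking mice.

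Vapor had opposite signs for Pcdh8 and Pcdh10 in the PFC of drinking and non-drinking mice. In Comparison 1, vapor on top of drinking, Pcdh8 was the 1 member called of 35, where 1.87% of all probesets were. The log2 signal of Pcdh8 in CIE Drinking mice ran from 8.78 to 9.28 with a median of 9.01, below the Air Drinking mean on all 12 arrays, and fell by 0.38 ± 0.09 on the log2 scale (SE, n = 12 and 11, limma adjusted p = 0.0081). The call was lost with the striatal marker covariate (-0.37, limma adjusted p = 0.0174), and with 1417051_at, the Pcdh8 probeset of larger variance, in its place (-0.35, limma adjusted p = 0.0301).

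In Comparison 2, vapor in mice without drinking, Pcdh10 was the 1 member called of 35, where 1.26% of all probesets were. Pcdh10 ran from 9.95 to 10.5 with a median of 10.2 in CIE NonDrinking mice, above the Air NonDrinking mean on all 12 arrays. The log2 fold change was 0.29 ± 0.06 (SE, n = 12 and 12, limma adjusted p = 0.0043). The call was lost in 4 of 8 alternatives, namely array weights, only the 2 groups in the fit, the mean of the Pcdh10 probesets and the probeset of largest variance, with limma adjusted p from 0.0117 to 0.0327. In the same comparison, 11 of 12 non-clustered members had positive fold changes with a median of 0.16 on the log2 scale. Of 23 clustered members 13 did, with a median of 0.03. All probesets had a median of 0.00, and 48.1% of them were positive. In each class 5 members had an unadjusted p under 0.05, beside 20.3% of all probesets.

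The difference between these vapor responses, the interaction of vapor and drinking, was tested in the same fit. It was called for 2 of 35 members, Pcdh8 (-0.63 ± 0.13, limma adjusted p = 0.00127) and Pcdh10 (-0.49 ± 0.09, limma adjusted p = 0.000424), where 2.92% of all probesets were called. With the marker covariate the interaction was -0.62 for Pcdh8 and -0.46 for Pcdh10 and was called for both. With the probeset of largest variance in its place, that of Pcdh10 was -0.39 (limma adjusted p = 0.0109). Pcdh15 (-0.26, limma adjusted p = 0.0128) and Pcdhb21 (-0.17, limma adjusted p = 0.0151) did not pass. The drinking term, averaged over vapor, was called for Pcdhb7 (0.22, limma adjusted p = 0.00735) and Pcdhb21 (0.10, limma adjusted p = 0.00558), 2 of 35 beside 1.35% of all probesets. The drinking call of Pcdhb21 was lost in 3 of 6 alternatives, namely renewed quantile normalization (0.08), the probeset of largest variance (0.31) and the marker covariate (0.09), with limma adjusted p from 0.0105 to 0.0316.

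**Figure D3:**
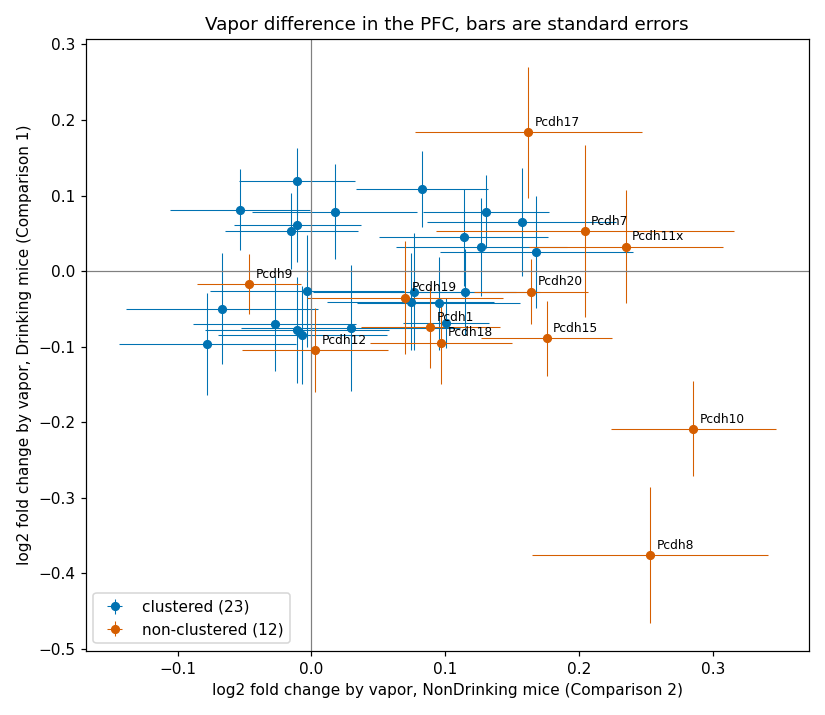
Log2 fold change by vapor in the PFC of the 35 members, in non-drinking mice (x axis, Comparison 2) and in drinking mice (y axis, Comparison 1), which share no arrays, with standard errors as bars. Pcdh8 and Pcdh10 lie at the lower right, at 0.25 and 0.29 in non-drinking mice and -0.38 and -0.21 in drinking mice.

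Pcdhb7 was the 1 member called in the PFC in Comparison 4, CIE Drinking against Air NonDrinking, where 0.722% of all probesets were called. Its log2 signal ran from 7.40 to 8.17 with a median of 7.97 in Air NonDrinking mice and from 8.07 to 8.51 with a median of 8.24 in CIE Drinking mice. The ranges overlapped, all 12 CIE Drinking arrays lay above the Air NonDrinking mean, and the fold change was 0.33 ± 0.07 on the log2 scale (SE, n = 12 and 12, limma adjusted p = 0.00633). With only those 2 groups in the fit it was not called. Among the clustered members in Comparison 4, 11 of 23 had an unadjusted p under 0.05, beside 27.9% of all probesets, with 9 of them positive. Pcdhb5 (-0.25) and Pcdhb11 (-0.17) lay below the Air NonDrinking mean on all 12 CIE Drinking arrays, and Pcdhb20 (0.20) and Pcdhb3 (0.19) above it on all 12, with limma adjusted p from 0.0288 to 0.107. Pcdhb9, the brightest clustered member, had 0.14 (limma adjusted p = 0.131), and Pcdhgc4 had 0.04. By mean signal in the PFC, Pcdhb5 and Pcdhb11 lay low, at the 26.3rd and 27.1st percentile. Pcdhb20 and Pcdhb3 lay at the 74.2nd and 72.7th. Of all 23 clustered members, 14 had positive fold changes in Comparison 4, beside 44.5% of all probesets.

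Some non-clustered members lay near the threshold in Comparison 4. Pcdh11x, a delta-1 protocadherin of the X chromosome, ran from 8.45 to 9.20 in Air NonDrinking and from 8.88 to 9.44 in CIE Drinking arrays, a log2 fold change of 0.31 (limma adjusted p = 0.0117), and Pcdh17, a delta-2 member that acts at presynaptic sites, ran from 9.73 to 10.7 and from 10.3 to 10.7, one of 0.32 (limma adjusted p = 0.0201). Neither was called.

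Levels of other non-clustered members in the PFC are given for Comparison 4 only. Between CIE Drinking and Air NonDrinking mice, Pcdh19, which binds N-cadherin, had median log2 signals of 9.06 and 8.79, and Pcdh18 of 6.21 and 6.17. Pcdh7 had 10.6 and 10.4, Pcdh20 had 7.61 and 7.59, Pcdh12, found on endothelial cells, had 4.50 and 4.61, and Pcdh1 had 3.95 and 3.88. None of these 6 was called in a comparison in the PFC in the main fit. Pcdh20 was called there in at least 1 comparison with the low-signal filter and at an adjusted p of 0.05. Pcdh19 was called with its probeset of largest variance.

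Pcdh8 and Pcdh10 showed no call for these contrasts elsewhere. For Comparison 6, Pcdh8 had log2 fold changes (± SE) of 0.16 ± 0.14 for NAC, -0.04 ± 0.08 for HPC, 0.13 ± 0.08 for BNST and 0.05 ± 0.11 for CeA. Pcdh10 had 0.01 ± 0.08, -0.06 ± 0.13, 0.06 ± 0.05 and 0.04 ± 0.22 in the same order. Their interaction terms ran from -0.23 to 0.29 over the 4 regions, with a limma adjusted p of 0.227 or above. The difference between regions was tested for Comparisons 1 and 4 and not for Comparison 6 or the interaction.

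Markers of cell types moved beside the PFC results. In Comparison 6, where 1.4% of all probesets were called, 2 of 7 excitatory cortical markers measured, Cux2 and Rorb, were called higher. In Comparison 1, where 1.87% of all probesets were, both were called lower. The median log2 fold change of the 7 was 0.11 in Comparison 6 and -0.02 in Comparison 1. The mean log2 signal of the 7 ran from 8.87 to 9.32 in Air NonDrinking, 9.28 to 9.51 in Air Drinking, 9.03 to 9.41 in CIE NonDrinking and 9.15 to 9.42 in CIE Drinking arrays. The median log2 fold change of the 7 striatal markers was -0.57 in Comparison 6 and 0.44 in Comparison 1, with 0 called in either. In Comparison 2 all 7 striatal and all 7 oligodendrocyte markers had negative log2 fold changes, with medians of -0.30 and -0.13 and 0 called, and Pcdh10 was called there with the striatal covariate too (0.27, limma adjusted p = 0.00826). Neurod1, of the 7 hippocampal markers, was called higher in Comparison 6 and lower in Comparison 1. The medians of these 7 had the opposite signs, -0.09 and 0.07. Nts, of the 8 central amygdala and BNST markers, was called lower in Comparison 6, where the median of the 8 was -0.005. In Comparison 1, Gfap, of 6 astrocyte markers, and Olig2, of 7 oligodendrocyte markers, were called higher, beside list medians of 0.05 and 0.32. For the interaction, where 2.92% of all probesets were called, the median of the 7 striatal markers was 0.76, with Ppp1r1b called higher (0.82). Gfap (1.22), Nts (0.61), Olig2 (0.46) and Mobp (0.38), an oligodendrocyte marker, were also called higher for it, and Neurod1 (-1.22) and Cux2 (-0.94) lower. The interaction medians of the astrocyte, central amygdala and BNST, and oligodendrocyte lists were 0.04, -0.006 and 0.46. Those of the hippocampal and excitatory lists were 0.17 and -0.09. The part of markers other than the striatal ones in the Pcdh values was not tested.

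In the HPC, Pcdh9 was the 1 member of 35 called in Comparison 4, where 3.63% of all probesets were. Pcdh9 is a delta-1 protocadherin, and its probeset 1442659_at ran from 11.1 to 11.6 with a median of 11.5 in Air NonDrinking mice and from 11.6 to 11.9 with a median of 11.8 in CIE Drinking mice. All 12 CIE Drinking arrays lay above the Air NonDrinking mean, and the fold change was 0.41 ± 0.09 on the log2 scale (SE, n = 12 and 8, limma adjusted p = 0.00153). Air Drinking arrays spanned 11.2 to 11.9, the widest range of the 4 groups, and CIE NonDrinking arrays 11.4 to 11.8.

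The other probesets of Pcdh9 were not called. In Comparison 4 in the HPC, 1429861_at had a log2 fold change of -0.07 ± 0.05 and 1458269_at one of 0.19 ± 0.06 (limma adjusted p = 0.0499). With the mean of the 3 probesets the call of Pcdh9 was lost (0.17, limma adjusted p = 0.0437). Over all members of the HPC in Comparison 4, 7 of 23 clustered members and 4 of 12 non-clustered members had positive fold changes, beside 42.3% of all probesets. The medians were -0.05 and -0.03 on the log2 scale beside -0.02 over all probesets. Of the cell type markers, Cx3cr1, 1 of 6 microglial markers measured, was called higher in this comparison, where 3.63% of all probesets were called. The mean of the 6 ran from 9.75 to 10.2 in Air NonDrinking and 9.76 to 10.1 in CIE Drinking arrays.

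No member was called in the NAC, BNST or CeA by limma, each judged by the brightest probeset of its gene. For Pcdh9 that was 1429861_at in the BNST and CeA, and not the 1442659_at of the HPC and NAC. In the BNST, 1442659_at had mean log2 signals of 12.08 in CIE Drinking and 11.85 in Air Drinking arrays. It had 11.89 in CIE NonDrinking and 11.87 in Air NonDrinking arrays. Its CeA means were 11.3, 11.2, 11.1 and 11.1 in the same order. At an unadjusted p under 0.05 in Comparison 1 there were 10 of 35 members in the NAC, 3 in the BNST and 5 in the CeA, beside 17.0, 23.3 and 15.4% of all probesets. In Comparison 4 there were 11, 2 and 7, beside 19.6, 14.1 and 12.5%.

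In the NAC the nearest were Pcdh9 (0.26 ± 0.07, limma adjusted p = 0.0105, above the control mean on 10 of 11 CIE Drinking arrays) and Pcdh10 (0.30 ± 0.08, limma adjusted p = 0.0163, on 11 of 11), both in Comparison 4 and log2 fold changes, and Pcdh7 in Comparison 1 (0.24, limma adjusted p = 0.166). Pcdh9 signal in the NAC ran from 11.5 to 11.9 with a median of 11.7 in Air NonDrinking and from 11.6 to 12.1 with a median of 12.0 in CIE Drinking arrays. In Comparison 4 in the NAC, 10 of 12 non-clustered and 14 of 23 clustered members had positive fold changes, beside 40.9% of all probesets. The medians were 0.16 and 0.03 on the log2 scale beside -0.02 over all probesets. The call of Pcdh9 depended on the fit, since low-signal filtering, array weights, a variance trend and a fit of the 2 groups alone each called it.

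In the BNST the smallest p-values in Comparisons 1 and 4 belonged to Pcdh10 (-0.14, limma adjusted p = 0.0692), Pcdhb4 (0.15, limma adjusted p = 0.108) and Pcdhb10 (-0.13, limma adjusted p = 0.21). In the CeA they belonged to Pcdh11x (-0.58 ± 0.19, limma adjusted p = 0.107), Pcdhb17 (-0.22, limma adjusted p = 0.107) and Pcdhb8 (-0.19, limma adjusted p = 0.202). Pcdh11x in the CeA ran from 9.16 to 10.2 with a median of 9.57 in Air Drinking and from 8.48 to 10.1 with a median of 8.90 in CIE Drinking arrays. Pcdhb17 ran from 7.999 to 8.36 in Air NonDrinking arrays and from 7.59 to 8.10 in CIE Drinking arrays, below the control mean on all 12. Within-group spread was larger in the CeA, with a median standard deviation of 0.28 for non-clustered members on the log2 scale beside 0.14 in the PFC, and 0.15 and 0.14 over all probesets.

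Probesets that were not the brightest of their gene gave further calls. Pcdh19 probeset 1444422_at was called higher in Comparison 4 in the NAC (0.58 ± 0.13), HPC (0.58 ± 0.12) and BNST (0.42 ± 0.09), with limma adjusted p of 0.00246, 0.00162 and 0.00242, where 2.71, 3.63 and 1.22% of all probesets were called. In the HPC its log2 signal ran from 9.32 to 9.76 in Air NonDrinking and from 9.64 to 10.3 in CIE Drinking arrays. The other Pcdh19 probesets in the same region were not called in any comparison. In the PFC 1444422_at was called higher in Comparison 6 (0.31 ± 0.07, limma adjusted p = 0.00851) and was not called in Comparison 4. Through its probeset of largest variance, Pcdh19 was also called in the BNST in Comparison 1 and in the CeA in Comparison 3. In the CeA, 1444422_at had mean log2 signals of 9.69 in CIE Drinking and 9.02 in CIE NonDrinking arrays.

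For Pcdh10 in the PFC, 1421311_at separated the groups fully in Comparison 1, from 7.11 to 7.39 in Air Drinking and from 6.72 to 7.02 in CIE Drinking arrays, and fell by 0.37 ± 0.05 on the log2 scale (limma adjusted p = 1.5e-05). It also separated Air Drinking from Air NonDrinking arrays in Comparison 6, with a log2 fold change of 0.30 ± 0.05. The brightest Pcdh10 probeset had -0.21 in Comparison 1 and was not called (limma adjusted p = 0.0364). Of the 6 Pcdh10 probesets, 4 were called higher in Comparison 6 in the PFC, 1430667_at with 0.32 and 1444301_at with 0.29 besides these. Pcdh11x probeset 1438889_at was called higher in Comparisons 2 (0.28 ± 0.05) and 6 (0.25 ± 0.05). It was called with a negative value for the interaction (-0.40 ± 0.07). The brighter Pcdh11x probeset was called in none of these.

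The multiple-symbol Pcdha probeset 1451769_s_at, whose _s_at suffix marks probes shared by several transcripts, was called higher in Comparison 4 in the HPC (0.51 ± 0.09), BNST (0.32 ± 0.06) and CeA (0.41 ± 0.08, where 1.86% of all probesets were called), and the other 5 such probesets were not called in those regions. In the HPC it ran from 8.62 to 9.07 in Air NonDrinking and from 9.12 to 9.47 in CIE Drinking arrays, with no overlap.

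**Figure D4:**
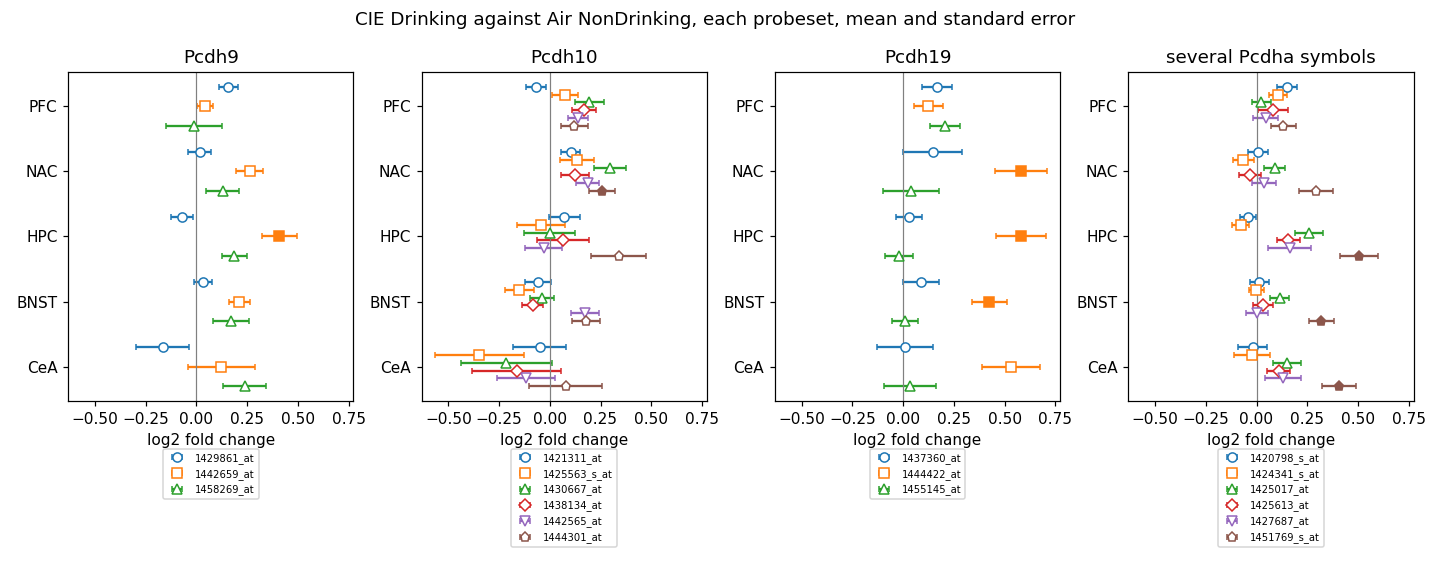
Log2 fold change with standard error of each probeset of Pcdh9, Pcdh10, Pcdh19 and the multiple-symbol Pcdha probesets in CIE Drinking against Air NonDrinking mice (x axis), by region (y axis), with filled markers where the adjusted p was at or below 0.01. Single probesets such as 1444422_at of Pcdh19 lie to the right of the others of their gene in the NAC, HPC, BNST and CeA.

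Differences in response between the PFC and each other region were tested for Comparisons 1 and 4 in 1 fit of all regions. Among the members with the same probeset in both regions of at least 1 test, 3 of 34 were called, where 9.92% of all probesets were called in at least 1 of the 8 tests. Pcdh17 differed in Comparison 4 from the HPC (0.41 ± 0.10, limma adjusted p = 0.00415) and CeA (0.40 ± 0.10, limma adjusted p = 0.00773), where its own log2 fold changes were 0.32 in the PFC, -0.09 in the HPC and -0.08 in the CeA. Pcdh11x differed between PFC and CeA in Comparison 1 (0.62 ± 0.17, limma adjusted p = 0.00722), with 0.03 and -0.58, and Pcdhb17 in Comparison 4 (0.37 ± 0.10, limma adjusted p = 0.00819), with 0.15 and -0.22. Among the probesets that were not the brightest, 1458269_at of Pcdh9 differed in Comparison 1 from each of the other 4 regions, with -0.50 in the PFC and 0.10 to 0.19 elsewhere (differences from -0.69 to -0.60, limma adjusted p of 0.00656 or below).

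Genes that act on or with protocadherins were counted beside the share of all probesets called. Of 13 measured regulators of cluster promoters and chromatin, Ctcf was called lower in the PFC in Comparison 2 (-0.20, limma adjusted p = 0.00395), and Setdb1, a histone methyltransferase that represses the clusters, higher in Comparison 5 (0.19, limma adjusted p = 0.000149), where 1.26 and 1.69% of all probesets were called. In the HPC, Dnmt3b, a DNA methyltransferase, was the 1 regulator called in Comparison 1 (-0.21), where 1.23% of all probesets were called. In Comparison 4 in the HPC, 3 of 13 regulators were called, where 3.63% of all probesets were. Ctcf (-0.12, through another probeset) and the cohesin subunit gene Stag2 (-0.14) were lower and the repressor Rest (0.31) higher, with limma adjusted p from 0.00291 to 0.00849 for these 4. The median over the 13 genes in Comparison 4 in the HPC was -0.12 on the log2 scale beside -0.02 over all probesets.

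Of 17 measured partners and effectors, Rhoa, a small GTPase of the cytoskeleton, was called higher in the PFC in Comparison 1 (0.16), beside 1.87% of all probesets called. Nlgn1, a postsynaptic adhesion gene, was called higher in the HPC in Comparisons 1 (0.37) and 4 (0.35) and in the NAC in Comparison 4 (0.32). It was the 1 partner of 17 called in each, beside 1.23, 3.63 and 2.71% of all probesets. Of 27 other cadherin superfamily genes in the PFC, 3 were called lower in Comparison 1 (Cdh7, Cdh22 and Clstn3) and 3 higher in Comparison 6 (Cdh7, Cdh22 and Fat3), Cdh7 with -0.35 and 0.31 and Cdh22 with -0.35 and 0.34, beside 1.87 and 1.4% of all probesets. Cdh8, a classical type II cadherin, was called higher in Comparison 4 in the NAC (0.53) and CeA (0.58), the 1 of 27 called in each, beside 2.71 and 1.86% of all probesets. Higher calls of Cdh8 were also made in the BNST in Comparison 1 (0.44) and in the CeA in Comparison 3 (0.79) and for drinking (0.43).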

How the data were processed

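The authors deposited log2 values of 45037 probesets, background-corrected and summarized by RMA, normalized by quantiles in each region and corrected for hybridization batch with ComBat. The batches are not given with the samples, so no fit within batches was made, and the correction may leave too little spread within groups. The number of arrays limits the precision. The 51 mouse numbers each stood in 1 group. Genes came from the platform annotation. The members and gene lists were chosen with earlier results of these data known.

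Groups were compared in each region with limma 3.58.1 in R 4.3.3, with 1 mean per group and p-values adjusted over all probesets with a value on each array (43969 in the CeA to 45037 in the PFC), and called at 0.01. The fit was tested on simulated data. Regions were compared in 1 fit of all arrays. Members named are those called, up to 8 of a class in a comparison, the 3 of smallest p where a region had none called in Comparisons 1 and 4, called regulators and partners, and the delta protocadherins. Other probesets and other cadherins were named after their values were seen. Alternatives were a filter below the 40th percentile of signal, only the 2 groups compared, a variance trend, array weights, renewed quantile normalization, other choices of probeset, a threshold of 0.05, mouse number as a block (statmod 1.5.0) between regions, and, added after the data were seen, a marker covariate. Promoter sequences were read from RefSeq tables, and no protein table or genome was used here.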

Additional observations from a re-analysis of the deposited data

Results flagged for a closer look

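Among 16 members examined in the 3 groups of 8 to 10 arrays, 48 sets of arrays in all, 3 held an array far from the others, where chance gives about 1 in 20. The highest Air NonDrinking array of the HPC was at 8.76 for Pcdh11x, with the next at 8.23. The lowest Air NonDrinking arrays of the CeA were at 10.1 for Pcdh19, with the next at 10.8, and at 4.90 for Pcdhb8, with the next at 5.17, all log2 signal.

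The vapor difference in drinking mice minus that in non-drinking mice, in the PFC, was -0.49 for Pcdh10 and -0.63 for Pcdh8 on the log2 scale by the interaction term. The response in the PFC minus that in another region differed by the test across regions for Pcdh11x in Comparison 1 against the CeA (0.62), for Pcdh17 in Comparison 4 against the HPC (0.41) and the CeA (0.40), and for Pcdhb17 in Comparison 4 against the CeA (0.37).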

How the results depend on the processing

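Counts of members called were recomputed under each alternative, and 170 of 215 values stayed within 1.5 times the count reported. In the rest, non-clustered members are meant unless clustered is said. With only the 2 groups compared, 2 were called in the PFC in Comparison 1, 0 in Comparison 2 and 0 clustered in Comparison 4, and 2 in the NAC in Comparison 4. With the mean of a gene's probesets, 0 were called in the PFC in Comparison 1, 2 clustered in Comparison 4, and 0 in the HPC in Comparison 4. With the probeset of largest variance, 0 were called in the PFC in Comparisons 1 and 2, 1 in Comparison 5 and 0 clustered in Comparison 6, 1 in the NAC in Comparison 4, 1 and 2 in the HPC in Comparisons 1 and 4, 1 in the BNST in each of Comparisons 1 and 4, and 1 in the CeA in Comparison 3. With array weights, 0 were called in the PFC in Comparison 2, 1 clustered in Comparison 5 and 4 clustered for drinking, 1 in the NAC in Comparison 4, 1 in the HPC for vapor, and 1 clustered in each of HPC Comparisons 1 and 4, BNST Comparison 1 and CeA Comparison 4. With the low-signal filter, 2 were called in the PFC in Comparison 2, 1 in Comparison 4 and 1 clustered for the interaction, and 1 in the NAC in Comparison 4. With a variance trend, 1 was called in Comparison 4 in each of the PFC and NAC. Renewed quantile normalization left 1 clustered member for drinking in the PFC, and the marker covariate, added after seeing the data, left 1 there and 0 in Comparison 1. At an adjusted p of 0.05, the PFC had 2, 4 and 3 in Comparisons 1, 2 and 4, with 4 and 2 clustered in Comparisons 4 and 6, the NAC 2, 1 and 2 in Comparisons 1, 3 and 4, the HPC 1 clustered in Comparison 1 and the BNST 1 clustered in Comparison 3. Of the 12 called fold changes, none changed sign under an alternative, and that of Pcdh10 in Comparison 6 was called in the 8 alternatives run for it, and those of Pcdh8 in the interaction and Pcdhb7 for drinking in the 6 run for each. The cause of these moves was not tested.

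Mouse numbers pair arrays only across regions. With the mouse as a replicate block between regions, 1 member was called for Comparison 1 (PFC minus CeA), 2 for Comparison 4 (PFC minus CeA) and 1 for Comparison 4 (PFC minus HPC), as without it, and the correlation within a mouse was 0.0146.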
